A study of Mus musculus with 24 samples.

Results

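The 10 immediate early genes of neuronal activity were followed across the frontal lobes of mice lacking Arg1. They are Fos (ENSMUSG00000021250), Fosb (ENSMUSG00000003545), Junb (ENSMUSG00000052837), Egr1 (ENSMUSG00000038418), Egr2 (ENSMUSG00000037868), Egr4 (ENSMUSG00000071341), Arc (ENSMUSG00000022602), Npas4 (ENSMUSG00000045903), Nr4a1 (ENSMUSG00000023034) and Bdnf (ENSMUSG00000048482). They were chosen by name and found by these Ensembl identifiers, and all 10 were present among the 18057 genes of the deposited table. Arg1 encodes arginase 1, the liver enzyme of the urea cycle that splits arginine into ornithine and urea, and the labels speak of its hepatic deficiency and of myelination in the postnatal brain. The groups were Arg1 knockouts given a viral treatment (TR), untreated Arg1 knockouts (KO), Arg1 heterozygotes (HE) and wild types (WT), with 6 mice and 6 arrays each, 24 arrays in all. The mice were at postnatal day 13, 14 or 15. The labels used here name neither the virus, its dose and the day it was given, nor the strain, sex or litter of the mice, so p-values measure the spread between these mice whatever they shared. The labels give 3 batches. Batch 1 held 3 KO and 3 WT mice and batch 2 held 3 TR and 3 HE mice, in each group 1 mouse at day 13 (replicate 4), 1 at day 14 (replicate 5) and 1 at day 15 (replicate 6). Batch 3 held 3 mice of each group (replicates 1 to 3), all at day 14. The labels do not say what the letter prefixes of the batch 3 titles mean, and those of KO mice differ from the rest. In batch 3, KO and whatever its prefixes stand for therefore cannot be told apart.

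Immediate early genes are transcribed within minutes of a calcium signal in a neuron, from transcription factors that are already present and without new protein synthesis. CREB, which binds cyclic AMP response elements, and the serum response factor, which binds CArG boxes, are the best known of these. Most of the products are transcription factors that start a later wave of genes, while Arc and Bdnf act at the synapse. In the cortex their RNA reports recent neuronal activity and falls again soon after the activity ends. Tissue was taken after isoflurane euthanasia in all groups, per the labels.

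The promoters of 4 of the genes are shown because they hold letter matches to these elements. RefSeq's table (assembly GRCm38.p6) gave start sites for 8 of the 10 genes, all but Arc and Egr1, with 18 windows between them. Each line is the strand of the gene, 5′ to 3′, over the 250 bases before 1 annotated start. Capitals mark the core of the cyclic AMP response element (TGACG or its reverse complement CGTCA) and, in Egr2, 1 CArG box. The windows are chr10:67537619-67537868 (plus strand) for Egr2, chr12:85473640-85473889 (plus strand) for Fos, chr19:4989972-4990221 (minus strand) for Npas4 and chr15:101266596-101266845 (plus strand) for Nr4a1. For Egr2, which has 5 listed starts, the first window that holds both motifs was taken.
Egr2: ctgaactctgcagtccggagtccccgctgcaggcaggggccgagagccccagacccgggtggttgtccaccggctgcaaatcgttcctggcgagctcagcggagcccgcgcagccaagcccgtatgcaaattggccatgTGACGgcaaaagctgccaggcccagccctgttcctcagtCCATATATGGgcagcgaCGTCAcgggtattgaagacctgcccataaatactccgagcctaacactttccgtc
Fos: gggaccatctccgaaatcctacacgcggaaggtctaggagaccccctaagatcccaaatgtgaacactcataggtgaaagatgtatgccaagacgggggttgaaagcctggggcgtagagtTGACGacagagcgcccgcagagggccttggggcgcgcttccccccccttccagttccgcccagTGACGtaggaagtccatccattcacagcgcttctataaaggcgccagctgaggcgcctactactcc
Npas4: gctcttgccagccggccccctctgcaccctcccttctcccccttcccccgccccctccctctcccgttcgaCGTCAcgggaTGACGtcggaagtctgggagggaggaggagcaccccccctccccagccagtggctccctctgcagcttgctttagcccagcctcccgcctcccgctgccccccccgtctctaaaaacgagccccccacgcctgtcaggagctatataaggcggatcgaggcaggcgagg
Nr4a1: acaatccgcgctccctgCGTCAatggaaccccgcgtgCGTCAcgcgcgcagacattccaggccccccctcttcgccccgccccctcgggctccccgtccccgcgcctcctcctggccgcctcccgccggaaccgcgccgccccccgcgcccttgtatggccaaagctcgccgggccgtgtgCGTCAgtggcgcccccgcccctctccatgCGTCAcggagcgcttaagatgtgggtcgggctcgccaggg
Egr2 held 2 cores and the CArG box CCATATATGG, which begins 72 bases before the start. Fos and Npas4 held 2 cores each, and Nr4a1 held 4. A core was found, on either strand, in at least 1 window of all 8 genes, and in 10 of their 18 windows, while 17.8% of all 32851 promoter windows of the same length hold one. A CArG box was found in 4 windows, all of them of Egr2, against 1.47% of all windows. A core and a CArG box cannot overlap, and the 2 forms of the core overlap only in the full element TGACGTCA. None of the 18 windows held the full element, against 1.55% of all windows. A match is a stretch of letters and not a measured binding site, and a window without one says nothing about the factor.

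All values are log2 array signals, and a difference of 1 on this scale is a doubling. The signals come from whole tissue, neurons and other cells alike, so fewer cells of a type and less RNA per cell cannot be told apart. The table names its genes only by Ensembl identifier and no table at hand pairs these with symbols, so markers of cell types, further activity-regulated genes and Arg1 itself were not analysed here. Neither the tissue nor the genotype labels were therefore checked against marker genes. Array medians lay between 6.71 and 6.79. The means of the 3 batches lay within 0.0042 (Egr4) to 0.0960 (Arc) of each other for these genes, with a median range of 0.0277 over all genes, although the batches hold different groups. The deposited values thus look levelled across batches, a step the labels do not name, and values are therefore compared within a batch or in a model with group and batch as terms. In a principal component analysis of the whole table KO replicate 1 stood apart, with a score of -27.99 on the first component against -11.55 to -5.03 in the other 5 KO mice. WT mice scored 3.31 to 18.03, so on this component KO replicate 1 lay farther from WT than any other KO mouse. Values without it are given in each comparison with KO.

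Against WT, the KO frontal lobe had lower signal of Egr2 and Arc. In a fit of limma over all 24 arrays with group and batch as terms, Egr2 was lower by 0.88 (KO minus WT -0.88, SE 0.230, 95% interval -1.36 to -0.41, p 0.0181 after Benjamini-Hochberg adjustment across the table). Arc was lower as well (KO minus WT -0.71, SE 0.202, -1.12 to -0.29, limma adjusted p 0.0300). These are 1.85-fold and 1.63-fold lower signals in KO. The other 8 genes did not pass the adjusted threshold of 0.05, and all 8 of their differences were below 0. The 2 of 10 genes called lower stand beside 4.48% of all genes called lower in this comparison. The median difference of the 10 genes was -0.29, and that of all genes was -0.01. All 10 lay below 0, as did 53.7% of all genes, and 6 of 10 had an unadjusted p under 0.05, as did 21.6% of all genes. The 10 genes move together from mouse to mouse, as shown further on, so their shared direction is not 10 separate observations. Without KO replicate 1, Egr2 was at -1.03 (adjusted p 0.00659) and Arc at -0.85 (0.00876). Npas4 (-0.60, 0.0297) and Egr1 (-0.28, 0.0479) were then called lower too. These 4 of 10 genes stand beside 6.69% of all genes called in either direction without that mouse. The others then lay at -0.55 for Nr4a1 (adjusted p 0.0772), -0.52 for Fos (0.0837), -0.29 for Junb, -0.24 for Egr4, -0.23 for Bdnf and -0.08 for Fosb, and the median was -0.40. KO replicate 1 was above the mean of its group and batch in 10 of 10 genes, so leaving it out lowers these differences. Without KO replicate 4, none of the 10 was called, with Egr2 at -0.73 (adjusted p 0.0504) and Arc at -0.60 (0.0774).

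**Figure D1:**
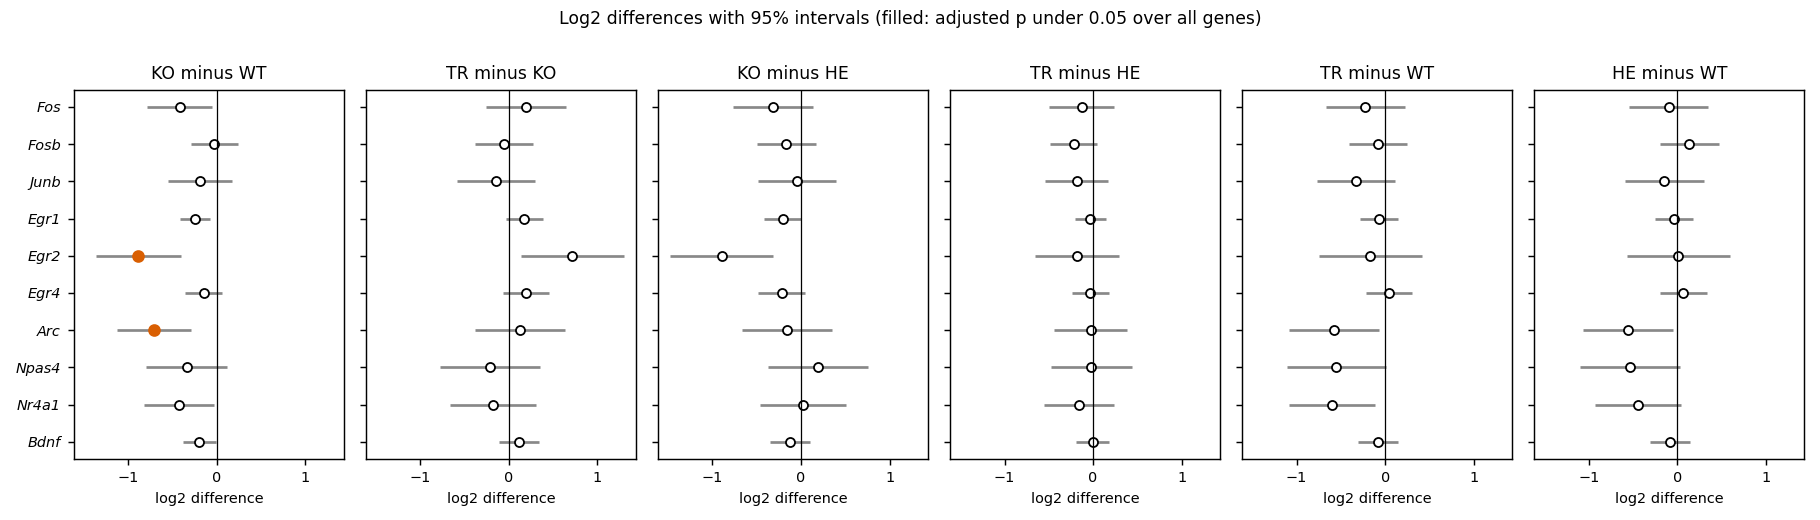
Differences between groups for the 10 genes. Each point is a log2 difference from the fit over all 24 arrays with group and batch as terms, with its 95% interval, and filled points passed an adjusted p of 0.05. Only Egr2 (-0.88) and Arc (-0.71) in KO minus WT are filled, and no gene passed in the other 5 comparisons.

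The EGR genes encode zinc finger transcription factors. Egr2, the member of this family best known for its role in peripheral myelin and hindbrain patterning, is induced by activity in cortical neurons. Its signal in batch 1, at days 13, 14 and 15, was 7.06, 7.71 and 8.42 in KO, against 8.38, 8.77 and 8.73 in WT. In batch 3 it was 7.89, 8.52 and 8.25 in TR, 8.19, 6.96 and 7.43 in KO, 8.25, 8.44 and 8.59 in HE, and 8.47, 8.57 and 8.14 in WT. The highest KO mouse of either batch, replicate 6 in batch 1 and replicate 1 in batch 3, lay just above the lowest WT mouse of that batch, and the other KO mice lay below every WT mouse. All 3 KO mice of batch 3 also lay below all 3 HE mice. The share of all genes that did so was not computed. In the same batch 9.02% of all genes had all KO mice below all WT mice. Egr2 in batch 2, at days 13, 14 and 15, was 8.03, 7.12 and 8.88 in TR, against 8.08, 8.06 and 8.35 in HE. Replicate 5 of TR lay among the KO values of the other batches, and replicate 6 of TR was the highest of all 24. Within batch 1 the KO minus WT difference of Egr2 was -0.90 (limma adjusted p 0.0595), and within batch 3 it was -0.87 (0.114). The difference was thus similar in both batches, with 0.03 between them (95% interval -0.97 to 1.03), but it passed the threshold in neither alone. Within batch 3 without KO replicate 1, Egr2 was at -1.20 (limma adjusted p 0.00713), and Fos passed as well (-0.81, 0.0480). This setting holds only replicates 2 and 3 of KO and was chosen after seeing the data. The share of all genes called in it was not computed.

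Egr1, also called Zif268 and widely used as a marker of recent activity, had 12.22, 12.54 and 12.73 in KO of batch 1, against 12.73, 12.83 and 12.90 in WT. Batch 3 gave 12.47, 12.67 and 12.78 in TR, 12.67, 12.46 and 12.47 in KO, 12.63, 12.78 and 12.79 in HE, and 12.71, 12.75 and 12.66 in WT. In both batches the highest KO mouse reached the lowest WT mouse and the other KO mice lay below. KO minus WT was -0.25 (SE 0.0836, -0.42 to -0.07, unadjusted p 0.00709, limma adjusted p 0.0714). With batch and postnatal day as a block, Egr1 was called lower (limma adjusted p 0.0252). Egr4, whose protein can repress EGR targets including its own gene, showed 7.60, 7.95 and 7.95 in KO of batch 1, against 8.0, 8.19 and 8.25 in WT, with no overlap. In batch 3, Egr4 was at 8.25, 7.59 and 7.95 in KO, against 8.06, 7.83 and 7.87 in WT, and the groups overlapped. Its KO minus WT difference over both batches was -0.15 (-0.36 to 0.06, limma adjusted p 0.439).

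**Figure D2:**
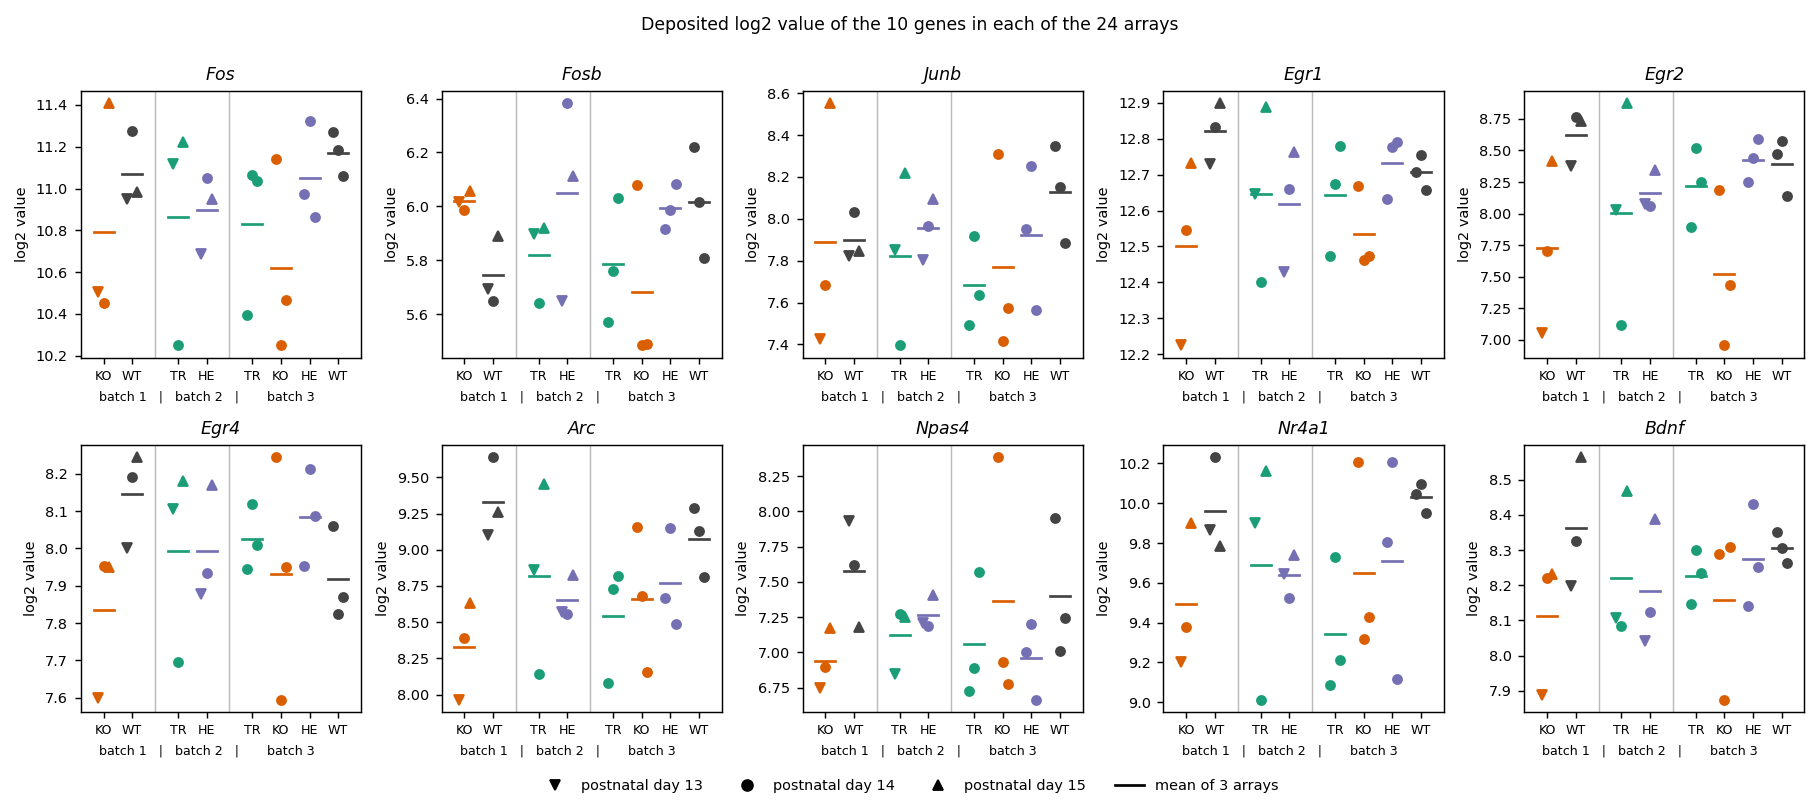
Deposited log2 signal of each gene in every mouse. Within each batch the groups run TR, KO, HE, WT as far as the batch holds them, each point is 1 mouse and the bar is the mean of 3. For Arc the 3 KO mice of batch 1 (7.97 to 8.63) lie below the 3 WT mice (9.10 to 9.64), and for Npas4 KO replicate 1 of batch 3 (8.39) lies above all other KO mice.

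Arc encodes a cytoskeleton-associated protein that drives the removal of AMPA receptors from active synapses, and its RNA is carried into dendrites. Arc had 7.97, 8.39 and 8.63 in KO of batch 1, against 9.10, 9.64 and 9.26 in WT. No KO mouse reached a WT mouse. In batch 3, Arc was at 8.08, 8.73 and 8.82 in TR, 9.16, 8.68 and 8.15 in KO, 8.67, 9.15 and 8.48 in HE, and 9.29, 9.13 and 8.81 in WT. There KO replicate 1 lay among the WT mice and the other 2 KO mice lay below them, and without it the difference within batch 3 was -0.66 (limma adjusted p 0.293). Within batch 1, Arc was at -1.01 (SE 0.163, limma adjusted p 0.00468), and within batch 3 at -0.41 (SE 0.242, adjusted p 0.539). The difference between the batches, 0.59 (95% interval -0.22 to 1.41), did not pass a test of the batch term (adjusted p 0.663). The call on Arc rested on several single mice. Its adjusted p was above 0.05 without KO replicate 3 (0.0659), 4 (0.0774) or 5 (0.0616) and without WT replicate 1 (0.0518), 5 (0.0900) or 6 (0.0625).

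Bdnf encodes brain-derived neurotrophic factor, the ligand of the receptor TrkB, and its activity-dependent transcripts appear somewhat later than those of Fos. Bdnf had 7.89, 8.22 and 8.23 in KO of batch 1, against 8.20, 8.32 and 8.56 in WT. In batch 3, Bdnf was at 8.15, 8.30 and 8.23 in TR, 8.29, 7.88 and 8.31 in KO, 8.14, 8.43 and 8.25 in HE, and 8.35, 8.31 and 8.26 in WT. The groups overlapped in both batches. KO minus WT was -0.20 (SE 0.0897, -0.38 to -0.01), with an unadjusted p of 0.0355 and a limma adjusted p of 0.189.

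Fos, Fosb and Junb encode subunits of AP-1, typically a dimer of a FOS and a JUN protein. Fos had 10.51, 10.45 and 11.41 in KO of batch 1, against 10.95, 11.27 and 10.98 in WT. Batch 3 gave Fos values of 10.40, 11.06 and 11.04 in TR, 11.14, 10.25 and 10.47 in KO, 10.97, 11.32 and 10.86 in HE, and 11.27, 11.18 and 11.06 in WT. In batch 1 and in batch 3 alike, a pair of KO mice lay below all WT mice and the third lay among or above them. KO minus WT of Fos was -0.42 (-0.78 to -0.05, unadjusted p 0.0278, limma adjusted p 0.164). Junb showed the same high mice, with 7.43, 7.69 and 8.55 in KO of batch 1, against 7.82, 8.03 and 7.85 in WT. In batch 3, Junb was at 8.31, 7.42 and 7.58 in KO, against 8.35, 8.15 and 7.89 in WT, and its KO minus WT difference was -0.19 (-0.55 to 0.17, adjusted p 0.610). Fosb, whose truncated product accumulates with repeated stimulation, was higher in KO in batch 1, with 6.02, 5.99 and 6.06 in KO, against 5.69, 5.65 and 5.89 in WT. In batch 3, Fosb was at 6.08, 5.48 and 5.49 in KO, against 6.22, 6.02 and 5.81 in WT. Its difference was 0.28 in batch 1 and -0.33 in batch 3. The difference between the batches, -0.61 (SE 0.239), had an unadjusted p of 0.0182 and did not pass limma's test over all genes (adjusted p 0.502). Over both batches Fosb was at -0.03 (-0.30 to 0.24). Within batch 3 without KO replicate 1, Fosb was at -0.53 (limma adjusted p 0.172) and Junb at -0.63 (0.174).

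Nr4a1 encodes an orphan nuclear receptor, and Npas4 a neuron-specific helix-loop-helix factor that is induced by calcium influx. Nr4a1 had 9.20, 9.38 and 9.90 in KO of batch 1, against 9.86, 10.23 and 9.78 in WT. In batch 3, Nr4a1 was at 9.09, 9.73 and 9.21 in TR, 10.21, 9.32 and 9.43 in KO, 9.80, 10.21 and 9.12 in HE, and 10.05, 10.09 and 9.95 in WT. All 3 TR mice lay below all 3 WT mice, while the ranges of KO and HE overlapped with that of WT. KO minus WT of Nr4a1 was -0.42 (-0.82 to -0.03, unadjusted p 0.0370, limma adjusted p 0.193). Npas4 had 6.75, 6.89 and 7.18 in KO of batch 1, against 7.93, 7.62 and 7.18 in WT. The groups did not overlap, although the highest KO and the lowest WT mouse were equal to 2 decimals. In batch 3, Npas4 was at 6.73, 6.89 and 7.57 in TR, 8.39, 6.93 and 6.77 in KO, 7.01, 7.20 and 6.67 in HE, and 7.95, 7.01 and 7.24 in WT. KO replicate 1 was the highest of all 24 mice, and the other 2 KO mice were below all 3 WT mice. KO minus WT of Npas4 was -0.64 within batch 1 (SE 0.169, limma adjusted p 0.0497) and -0.04 within batch 3 (SE 0.356). Within batch 3 without KO replicate 1 it was -0.55 (limma adjusted p 0.502). Their difference, 0.60 (-0.32 to 1.52), did not pass the test (adjusted p 0.697). Over both batches it was -0.34 (-0.80 to 0.12, adjusted p 0.414).

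Within batch 1 alone, Arc and Npas4 were the 2 genes called lower, where 2.81% of all genes were called lower. Within batch 3 alone none of the 10 was called by limma, where 0.482% of all genes were called lower, and 2 of the 10 had an unadjusted p under 0.05. The arrays of KO and WT did not overlap in batch 1 for Egr4, Arc and Npas4, which were lower, beside 13.7% of all genes lower without overlap. For Fosb they did not overlap in the higher direction, beside 11% of all genes. In batch 3 none of the 10 was free of overlap in either direction, beside 9.02% of all genes lower and 6.84% higher. Among all genes, 0 of 18057 passed limma's test of a KO minus WT difference that differs between the batches, and 1591 had an unadjusted p under 0.05.

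**Figure D3:**
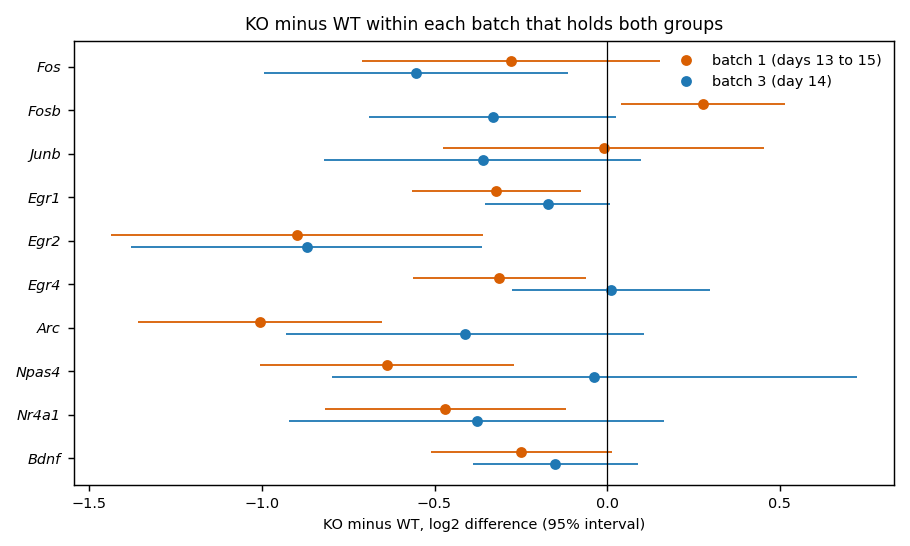
KO minus WT difference of each gene within batch 1 and within batch 3, with 3 mice a group in each, as log2 differences with 95% intervals. Egr2 has nearly the same value in both (-0.90 and -0.87), while Arc (-1.01 and -0.41), Npas4 (-0.64 and -0.04) and Fosb (0.28 and -0.33) differ more between the batches. The intervals of the 2 batches overlap for all genes but Fosb.

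The spread between mice was also compared between KO and WT. In batch 3 the standard deviation over 3 mice was larger in KO than in WT for all 10 genes, and in batch 1 for 8 of 10, all but Fosb and Npas4. Over all genes the KO standard deviation was the larger one in 58.1% (batch 3) and 64% (batch 1). The median standard deviation of the 10 genes in batch 3 was 0.471 in KO and 0.166 in WT, and in batch 1 it was 0.297 in KO and 0.182 in WT. The medians over all genes were 0.124 in KO and 0.106 in WT for batch 3, and 0.123 in KO and 0.0920 in WT for batch 1. Without KO replicate 1, the median of the 10 genes in batch 3 was 0.133 in KO and 0.166 in WT, and 6 of 10 had the larger value in KO, beside 50% of all genes. The difference in spread was not tested.

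TR was set against KO to ask whether the viral treatment changed these genes. None of the 10 was called by limma, where 3.11% of all genes were called in either direction, and only Egr2 had an unadjusted p under 0.05. TR minus KO of Egr2 was 0.71 (SE 0.282, 0.13 to 1.30, unadjusted p 0.0184, limma adjusted p 0.173), which is 1.64-fold. Without KO replicate 1 this was 0.94 (adjusted p 0.0932), and again no gene was called. Within batch 3 alone it was 0.69 (adjusted p 0.195), and without KO replicate 1 it was 1.02 there (limma adjusted p 0.0204), the 1 setting in which Egr2 was called in this comparison. That setting holds only replicates 2 and 3 of KO and was chosen after seeing the data. Arc, the other gene that was lower in KO than in WT, was at 0.13 (-0.38 to 0.64, adjusted p 0.839). Of the other differences, Fos was at 0.19 (-0.26 to 0.64), Egr1 at 0.18 (-0.04 to 0.39), Junb at -0.15, Nr4a1 at -0.18 and Npas4 at -0.21. The 10 genes had a median of 0.12, beside 0.02 over all genes, and 6 of them were above 0, as were 57.3% of all genes. These signs depended on KO replicate 1, which was above the mean of its group and batch in 10 of 10 genes. Leaving it out therefore raises these differences. Without it all 10 were above 0, beside 56.6% of all genes, and the median was 0.20 beside 0.02. Arc was then at 0.34, Fos at 0.34, Egr4 at 0.32, Npas4 at 0.18, Fosb at 0.03, and Junb and Nr4a1 at 0.01 each. Only batch 3 holds both TR and KO. There the title prefixes of the KO mice differ from those of the TR mice, so treatment and prefix cannot be told apart. The KO mice are shared by this comparison and KO minus WT, which favours opposite signs in the 2.

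TR was also set against WT. Nr4a1 was at -0.60 in TR minus WT (SE 0.235, -1.09 to -0.12, unadjusted p 0.0168), and Arc was at -0.58 (SE 0.247, -1.09 to -0.07, unadjusted p 0.0270). The limma adjusted p was 0.841 for both, so neither was called. Npas4 was at -0.55 (-1.11 to 0.01) and Egr2 at -0.17 (-0.75 to 0.41). Of the 10 genes 9 were below 0, with Egr4 at 0.04, as were 46.4% of all genes, and the median was -0.20 beside 0.01. None was called, where 0.00554% of all genes were called in either direction. In batch 3, 1 of the 10 genes, Nr4a1, had all TR mice below all WT mice, beside 3.3% of all genes.

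The heterozygotes set the loss of 1 copy of Arg1 beside the loss of both. KO and HE meet only in batch 3, where their title prefixes differ, so group and prefix cannot be told apart. In KO minus HE the largest difference was that of Egr2, at -0.89 (SE 0.282, -1.48 to -0.31, unadjusted p 0.00414, limma adjusted p 0.109). The other 9 genes had adjusted p-values of 0.365 or more, 8 of 10 were below 0 beside 53.3% of all genes, and the median was -0.16 beside -0.01. No gene of the 10 was called, where 1.98% of all genes were. With batch and postnatal day as a block, Egr2 was called (limma adjusted p 0.0371). Without KO replicate 1 the Egr2 difference was -1.12 (adjusted p 0.0504), and within batch 3 without that mouse it was -1.23 (limma adjusted p 0.00761). The latter setting holds only replicates 2 and 3 of KO and was chosen after seeing the data. All 10 genes were below 0 without KO replicate 1, beside 53.1% of all genes, with a median of -0.25 and with Npas4 at -0.20, Nr4a1 at -0.17, Arc at -0.37 and Egr4 at -0.35. That mouse was above its group and batch mean in 10 of 10 genes, so leaving it out lowers these differences. In HE minus WT, Egr2 was at 0.01 (-0.57 to 0.59), while Arc was at -0.55 (SE 0.247, -1.06 to -0.04, unadjusted p 0.0344, adjusted p 0.997), Npas4 at -0.53 and Nr4a1 at -0.45. None was called, where 0.00554% of all genes were called, and 7 of 10 were below 0 beside 49.6% of all genes. In TR minus HE all 10 lay between -0.22 (Fosb) and -0.01 (Bdnf), with a median of -0.08 beside 0.00 over all genes. No gene of the table was called there by limma (percent called 0), and 0 of the 10 but 4.39% of all genes had an unadjusted p under 0.05. Egr2 thus had similar estimates against both HE and WT (-0.89 and -0.88), whereas Arc was at -0.16 (KO minus HE) beside -0.71 (KO minus WT). The 2 comparisons share the KO mice, and whether Arc differs between them is the HE minus WT test above, which was not passed.

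Postnatal day was compared in batches 1 and 2, where each group has 1 mouse per day. The slopes of all 10 genes were positive, and only that of Bdnf passed the adjusted threshold of 0.05. Bdnf at days 13, 14 and 15 was 8.11, 8.09 and 8.47 in TR, 7.89, 8.22 and 8.23 in KO, 8.04, 8.12 and 8.39 in HE, and 8.20, 8.32 and 8.56 in WT. Day 15 was the highest in all 4 groups. In a fit over these 12 arrays with each group at its own level, Bdnf rose by 0.18 log2 per day (SE 0.0348, 0.10 to 0.25, limma adjusted p 0.0240), the only one of the 10 called, where 0.892% of all genes were called higher. The call did not hold without HE replicate 6 (adjusted p 0.139), KO replicate 4 (0.0731) or 6 (0.0654), TR replicate 6 (0.0661) or WT replicate 4 (0.0581) or 6 (0.0572), with slopes of 0.16 to 0.19. Egr1 had a slope of 0.16 (adjusted p 0.0674), Egr2 of 0.35 (0.172), Junb of 0.23 (0.199), Egr4 of 0.12 (0.248) and Arc of 0.21 (0.298). All 10 slopes were above 0, as were 52.1% of all genes, with a median of 0.16 beside 0.00, and 6 had an unadjusted p under 0.05, as did 15.9% of all genes. The signal at day 15 exceeded that at day 13 in 10 of 10 genes in TR, KO and HE and in 8 of 10 in WT, while over all genes it did so for 49.3% in TR, 52.5% in KO, 49.4% in HE and 56.8% in WT. Within a group, day and mouse cannot be told apart.

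**Figure D4:**
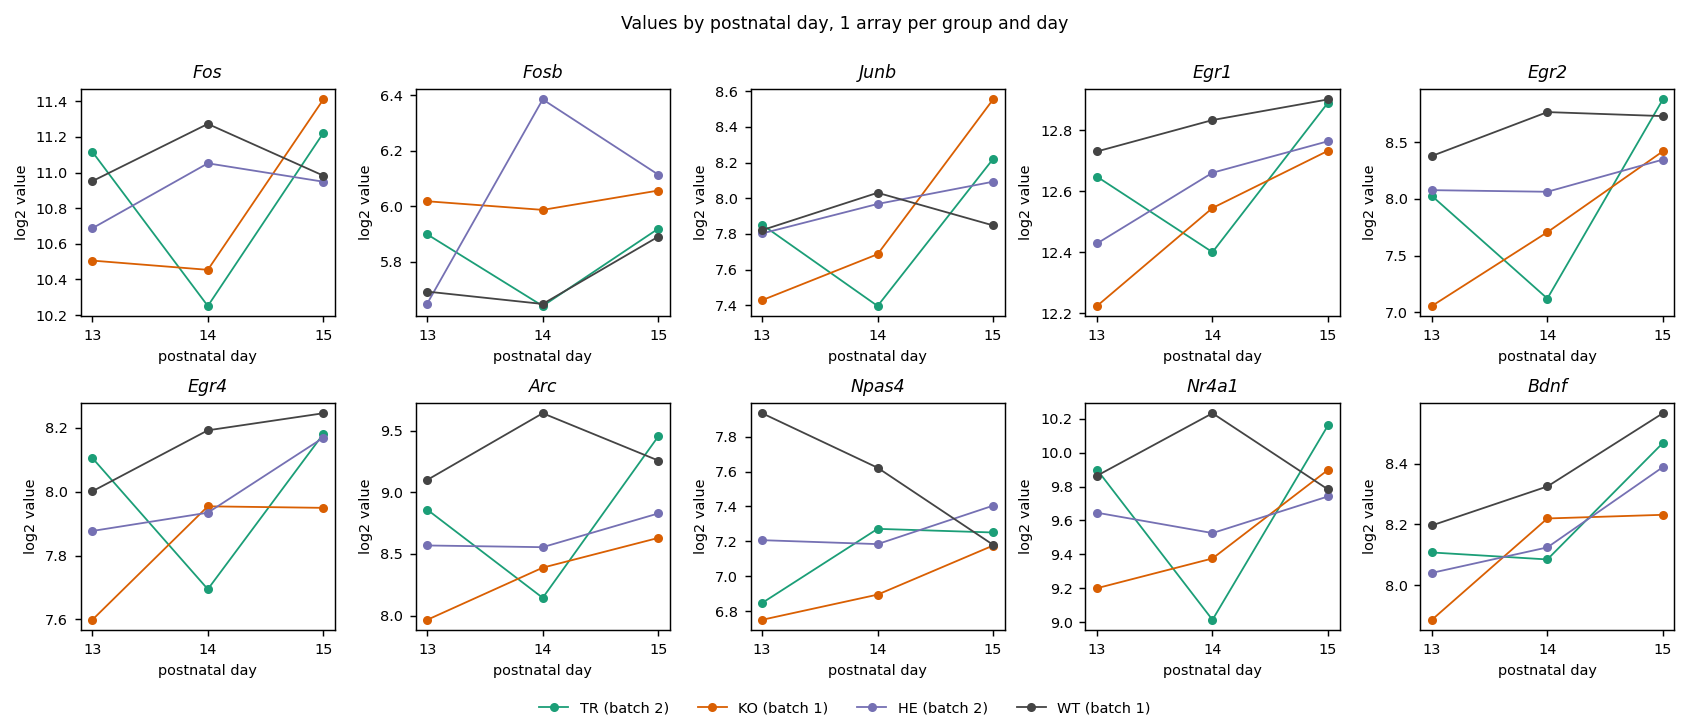
Log2 signal of the 10 genes against postnatal day in batches 1 and 2, 1 mouse per point, with a line joining the 3 mice of a group. Bdnf is highest at day 15 in every group (8.23 to 8.56), and for Egr2 the KO mouse at day 15 (8.42) lies nearer to WT (8.73) than the KO mouse at day 13 (7.06) does to WT (8.38).

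In batch 1 the KO minus WT differences of single genes went both ways at day 15. For Egr2 the same-day difference was -1.32 at day 13, -1.06 at day 14 and -0.31 at day 15, and for Arc it was -1.13, -1.25 and -0.63. The median over the 10 genes was -0.48, -0.54 and -0.09, with 9, 9 and 6 of them below 0. At day 15, Junb was at 0.71 and Fos at 0.43, while Bdnf was at -0.33 and Egr4 at -0.30. In batch 2 the TR minus HE median was 0.22, -0.46 and 0.13 over the same days. These are single mice, without a test, and leaving out the KO mouse of day 15 (replicate 6) added Fos (limma adjusted p 0.0348) and Egr1 (0.0416) to the genes called in KO minus WT. The share of all genes called without replicate 6 was not computed.

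The 10 genes moved together from mouse to mouse within a group. After each value was set against the mean of its own group and batch, all 45 pairs of genes correlated above 0 over the 24 mice, with Pearson's r from 0.22 to 0.91 (median 0.68) and Spearman's rho from 0.19 to 0.92 (median 0.66). Of the 45 pairs, 32 passed 0.05 for r and 34 for rho after Benjamini-Hochberg adjustment over the pairs, in 100000 permutations of mice within group and batch. The shares of pairs of other genes that correlate above 0 or pass were not computed. Fos and Junb had the highest r, with r = 0.909 and rho = 0.911 (permutation p 1e-05, the smallest these permutations can give, adjusted p 0.00045 for both), and r = 0.877 without the 2 mice farthest from the median of Fos. Junb and Nr4a1 had the highest rho, with r = 0.898 and rho = 0.918, and r = 0.895 without the 2 farthest mice. Egr1 and Egr2 gave r = 0.875 and rho = 0.846, and Egr4 and Bdnf gave r = 0.842 and rho = 0.859. The genes called in KO minus WT, Egr2 and Arc, gave r = 0.786 and rho = 0.754 (permutation adjusted p 0.00685 and 0.00478), and r = 0.658 without the 2 farthest mice. The weakest pair was Npas4 and Bdnf, with r = 0.215 and rho = 0.193 (permutation adjusted p 0.546 and 0.455). Without the 2 mice farthest from the median of the first gene, r ran from 0.11 to 0.90 (median 0.64). Without KO replicate 1 it ran from 0.08 to 0.89 (median 0.61), with 25 pairs past the threshold. The pairs share the same 24 arrays and are not independent of each other. In batches 1 and 2 the mice of a group differ in postnatal day, which was not taken out of the deviations. All 10 slopes over day were above 0, so age and mouse cannot be told apart there. With every array centred on its own median, 31 pairs passed. Junb (r 0.905), Fos (0.895) and Egr2 (0.888) followed the mean of the other 9 genes most closely, and Bdnf (0.684), Fosb (0.592) and Npas4 (0.501) the least.

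Single mice thus stood high or low over the whole set. In batches 1 and 2 each mouse of a group has its own postnatal day, so mouse and day cannot be told apart there. Replicates 6 of KO, TR and HE, named below, are day 15 mice, and KO replicate 4 is a day 13 mouse. Day did not go with rank throughout, as WT replicate 6 (day 15) was above in 5 of 10 genes and TR replicate 4 (day 13) in 8 of 10. KO replicate 1 was above the mean of its group and batch in 10 of 10 genes, with a median deviation of 0.51, and KO replicate 6 in 10 of 10, with 0.27. KO replicate 4 was below in 10 of 10 (median -0.28) and KO replicate 2 in 9 of 10 (-0.33). Of the TR mice, replicate 6 was above in 10 of 10 (0.30), replicate 1 below in 10 of 10 (-0.24) and replicate 5 below in 9 of 10 (-0.36). In HE, replicate 6 was above in 10 of 10 (0.14), replicate 2 above in 9 of 10 (0.20) and replicate 4 below in 9 of 10 (-0.13). In WT, replicate 1 was above in 10 of 10 (0.12), replicate 3 below in 10 of 10 (-0.14) and replicate 4 below in 9 of 10 (-0.11). Deviations within a group and batch sum to 0, so genes that move together give high and low mice in every group. The largest deviations were in TR and KO.

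**Figure D5:**
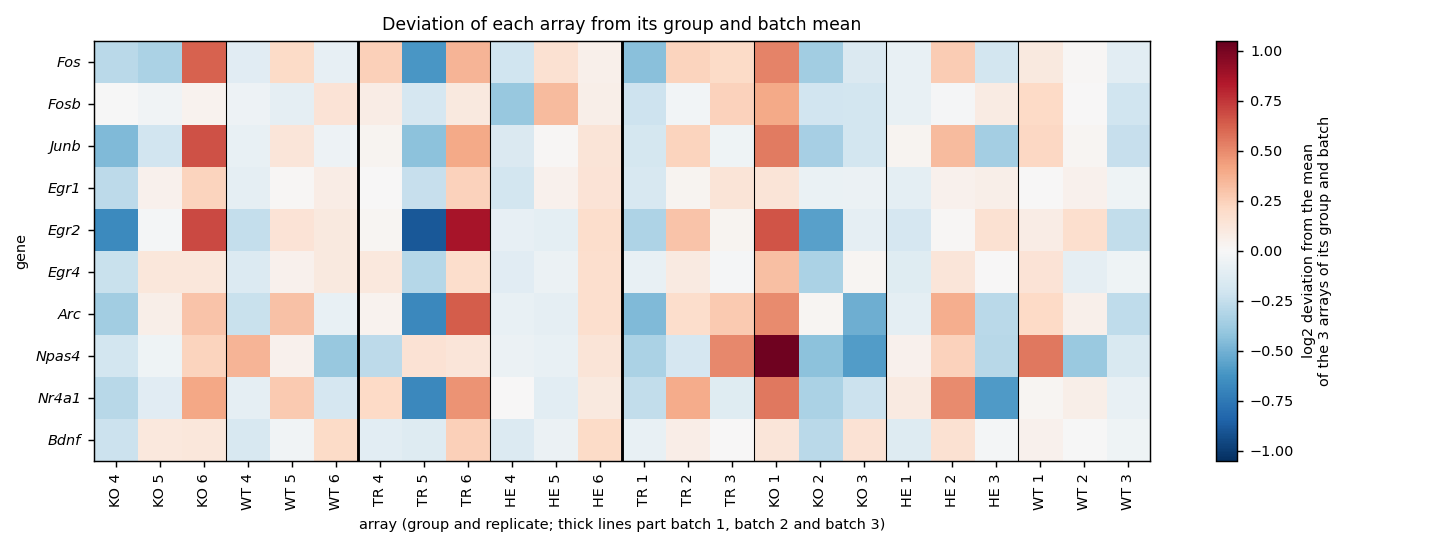
Deviation of each gene in each mouse from the mean of its own group and batch, in log2 units, with mice in columns and genes in lines. The columns of KO replicate 1, KO replicate 6 and TR replicate 6 are above 0 throughout, and those of KO replicate 4 and TR replicate 1 are below 0 throughout.

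Over the 24 arrays, 714 of 18047 other genes (3.96%) had a Pearson's r of 0.5 or more with the mean standardized deviation of the 10 genes, and the median r of the others was 0.0144. This is a description over mice that the 10 genes also share. The closest were ENSMUSG00000028645 (r 0.850) and ENSMUSG00000015312 (r 0.842), which the files do not pair with names. In KO minus WT, ENSMUSG00000028645 was higher by 0.79 (SE 0.0641, limma adjusted p 4.69e-08), against the direction of the 10 genes, and in TR minus KO it was at -0.69 (adjusted p 2.84e-05). ENSMUSG00000015312 was at 0.07 in KO minus WT (adjusted p 0.797). A gene that followed the set from mouse to mouse within a group could thus differ between groups in the opposite direction.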

How the data were processed

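Per the labels' protocols, frontal lobe RNA of 24 mice was primed with oligo(dT), amplified, labelled with biotin and put on Affymetrix mouse genome arrays. The deposited table holds 1 log2 signal per Ensembl gene and array for 18057 genes. The tools were affy and RMA, per the submitters' processing notes. Neither their versions nor the probe map nor a batch step is given in the sources used here. The number of arrays limits the precision.

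Samples were grouped by the genotype label and batches by the batch label. Differences were fitted on the deposited values, with no filter, in limma 3.58.1 (R 4.3.3), with group and batch as terms over all 24 arrays, and an intensity trend. Residual degrees of freedom were 18, with 6.04 added by the prior. All tests were two-sided. A gene was called where p, after Benjamini-Hochberg adjustment over the table, was below 0.05. The 6 comparisons were repeated inside single batches where both groups were present. Alternatives covered the batch term, day, normalization, spread estimate, dim genes and each mouse left out. Those that leave KO replicate 1 out of batch 3, or single mice out of the day slope and the tests between batches, were chosen after seeing the data. Over all genes, deviations of same-day mice from their group means correlated at 0.157 to 0.248 in batch 2, each above 0.1, and at -0.155 to 0.083 in batch 1. The labels name no shared litter. The main fit did not pair mice by day. A second fit with batch and day as a block pairs same-day mice in batch 1 and batch 2 alike. It is given where it changes a call. The fits were tested on simulated data. The 10 genes, the comparisons and the lists were chosen with earlier results of these data known. All 10 genes are given in every comparison, and the closest other genes are those with the highest r with their mean standardized deviation. Gene lists given by symbol could not be matched to the identifiers and were not used.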

Additional observations from a re-analysis of the deposited data

Results flagged for a closer look

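Of 44 sets of 6 arrays examined (the 10 genes and the first principal component in each of the 4 groups), 2 had a value whose gap to the nearest other mouse, as a share of the range of the set, exceeded Dixon's 95% critical value. Chance gives about 1 in 20 sets, or 2.2 of 44. Both concern KO replicate 1. Npas4 was 8.39 in KO replicate 1, against 6.75 to 7.18 in the other 5 KO mice (gap over range 0.740). The first principal component of all genes was -27.99 in KO replicate 1, against -11.55 to -5.03 in the other 5 (0.716).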

How the results depend on the processing

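In KO minus WT 2 of the 10 genes were called. The count was 0 within batch 3 alone and 1 (Egr2) with a robust spread estimate, where Arc had an adjusted p of 0.0623. It ran from 0 to 4 when single mice were left out, with 0 without KO replicate 4, 4 without KO replicate 1 or 6, and 1 (Egr2) without KO replicate 3 or 5 or WT replicate 1, 5 or 6. Over 38 alternatives Egr2 lay between -1.20 and -0.73 (adjusted p 0.00446 to 0.114) and Arc between -1.01 and -0.41 (0.00468 to 0.539), and neither changed sign. In KO minus HE, where no gene was called, Egr2 was called with batch and postnatal day as a replicate block (count 1, adjusted p 0.0371) and when TR replicate 6 was left out (counts 0 to 1, adjusted p 0.0350). With the same replicate block, KO minus WT had 3 genes called, with Egr1 added. The block changed no other call. The day slope had 2 called genes without the dimmer 50% of genes, when Egr1 passed (adjusted p 0.0404), and 0 to 3 when single mice were left out. Within batch 3 without KO replicate 1 the count was 1 (Egr2) in TR minus KO and in KO minus HE. In TR minus KO no other alternative gave a call, and in TR minus HE, TR minus WT and HE minus WT the count was 0 under every alternative run. Tests between batches gave 0 called among the 10 under every alternative run. Pairs of genes with an adjusted p under 0.05 numbered 25 to 35 when single mice were left out. For KO minus WT, the share of all genes called is given above for batch 1 alone, batch 3 alone and without KO replicate 1. It was not computed for the other alternatives that changed a count, so whether those counts moved with the whole table is unknown. The cause of these changes was not tested. Each group has 3 arrays per batch, and TR and KO meet only in batch 3. The virus and the batch levelling are not described in the labels.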
